A study of Caenorhabditis elegans with 9 samples.

Results

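The piRNA repertoire of wild-type adult hermaphrodites of Caenorhabditis elegans was described from 3 small RNA libraries, labelled wild type replicates 1, 2 and 3, of 9 libraries in all. The other 6 libraries came from other genotypes and were not analysed here. The wild-type animals were adults 24 h past mid-L4 (L4 is the last larval stage), kept at 25 °C, and whole animals were used, with 20 to 30 gathered for a genotype. The labels' growth text first calls the animals hermaphrodites and then males, and hermaphrodite was used because the titles say so. The labels name no wild-type strain and do not say whether replicates came from separate cultures, so the spread between libraries may be technical. Small RNA was treated with a pyrophosphatase before cloning, which also admits RNAs that carry a 5′ triphosphate. Reads were counted, separately for the sense and the antisense strand, on the 15913 entries of piRNAdb, a database of piRNA sequences. Of these entries, 3437 (21.6%) had at least 1 sense read in the 3 libraries together.

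In C. elegans, piRNAs are short RNAs of the germline that are made from a great many small separate genes, most of them in clusters on chromosome IV. Each gene gives rise to its own precursor, which is trimmed and bound by PRG-1, a Piwi protein. The bound piRNA finds target transcripts by imperfect pairing, and an RNA-dependent RNA polymerase then makes secondary small RNAs that carry the silencing on. A read of the sense strand has the orientation of the piRNA itself, and a read of the antisense strand has the opposite one. The entries carry neither sequences nor positions in the tables, so no sequence is shown and no entry was placed in the genome.

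Wild type replicate 1 had 2424372 reads mapped to the genome, of which 14377 were sense piRNA reads. Replicate 2 was the shallowest library, with 1561419 genome-mapped and 5129 sense reads. Replicate 3 had 2921441 genome-mapped and 14141 sense reads. Per 1000000 genome-mapped reads (RPM), this gave 5930, 3285 and 4840 sense reads in replicates 1, 2 and 3. Sense piRNA reads were thus 0.593%, 0.328% and 0.484% of the genome-mapped reads. The mean rate was 4685 ± 1329 RPM (SD, n = 3), a coefficient of variation (CV, the SD over the mean) of 28.4%. Replicate 1 was 1.81 times and replicate 3 was 1.47 times replicate 2. In whole animals, fewer germ cells and fewer piRNAs per germ cell cannot be told apart in such a rate. Genome-mapped reads were not spread evenly over the genome. By mean share over the 3 libraries, the segment with most reads lay at the end of chromosome I, where Ensembl annotates 4 ribosomal RNA genes, and took 12.2%, 14.3% and 3.83% of them in replicates 1, 2 and 3. It was low in replicate 3 alone, where a segment of chromosome III and one of chromosome V had more reads. With this segment left out of the denominator the rates were 6754, 3833 and 5033 RPM, with replicate 2 still the lowest. Replicate 3, where the segment was low, rose least. The mean was then 5207 ± 1469 RPM (SD, n = 3), beside 4685 ± 1329 RPM with the segment. Other uneven segments stayed in the denominator, and what part any segment has in the spread of the piRNA rate was not tested.

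Most detected entries were seen only a few times, and a small number carried much of the signal. The median entry with a sense read had 2 sense reads over the 3 libraries, the 90th percentile was 14 and the 99th was 111. There were 1366 entries with 1 read, 39.7% of those detected, and they held 4.06% of sense reads. Another 1163 entries had 2 to 4 reads and 427 had 5 to 9. The 2956 entries with fewer than 10 reads made up 86.0% of detected entries and 21.6% of sense reads. Above them stood 316 entries with 10 to 29 reads, 120 with 30 to 99 and 33 with at least 100 but under 300. The most abundant class, 300 reads or more, had 12 entries. The 45 entries with at least 100 reads were 1.31% of detected entries and held 44.9% of sense reads.

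The 12 entries of the most abundant class took 31.0 ± 2.74% of sense reads (SD, n = 3), with 33.4% in replicate 2, 31.6% in replicate 3 and less in replicate 1. The 33 entries of the next class took 15.1%, 14.3% and 14.2%. Entries with 1 read took 4.44%, 3.59% and 3.85%. Replicate 1, the library with the most sense reads, had the highest share in each of the 6 classes under 300 reads and the lowest in the most abundant class. The classes were formed on the pooled counts, so a library with more reads weighs more in where an entry falls.

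**Figure D1:**
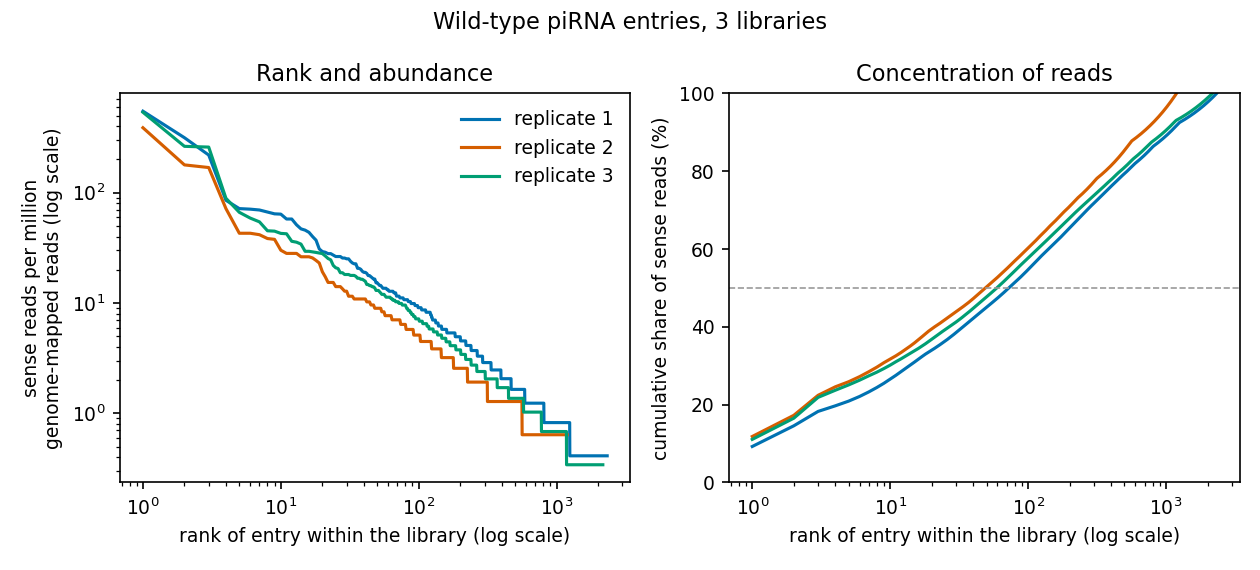
Left, the sense rate of each detected entry (RPM, log scale) against its rank within the library (log scale), 1 line for each wild-type library; right, the cumulative share of sense reads (%) against the same rank, with a dashed line at 50%. All 3 lines drop steeply after rank 3 and end in a long step at a single read, and 50% of the reads is reached at 73, 50 and 60 entries in replicates 1, 2 and 3.

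The same 4 entries headed every library in the same order. At the head stood cel-piR-10036, with 548, 388 and 536 RPM in replicates 1, 2 and 3, a mean of 491 ± 89.1 RPM (SD, n = 3). Its reads were 9.24%, 11.8% and 11.1% of all sense reads. The second, cel-piR-6101, was at 315, 179 and 263 RPM, and the third, cel-piR-2077, at 219, 169 and 259 RPM. In each library cel-piR-6101 was above cel-piR-2077, although the ranges of their rates overlap. The fourth, cel-piR-7578, followed at a distance, with 85.4, 71.7 and 89.0 RPM. The third entry had 2.57, 2.36 and 2.91 times as many reads as the fourth in replicates 1, 2 and 3. The ranges of cel-piR-2077 and cel-piR-7578 did not overlap, nor did those of cel-piR-10036 and cel-piR-6101.

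Below the fourth place the order was not fixed between libraries. The other 6 of the 10 highest mean rates belonged to cel-piR-12706, cel-piR-6252, cel-piR-8248, cel-piR-238, cel-piR-6649 and cel-piR-3162. Their mean rates ran from 55.7 ± 13.4 RPM for cel-piR-12706 to 46.4 ± 4.25 RPM for cel-piR-3162 (SD, n = 3), so neighbours in this order did not differ beyond their spread. For example, cel-piR-238 was at 40.0, 38.4 and 66.4 RPM, which put it at ranks 17, 8 and 5. For cel-piR-6649 the rates were 70.9, 26.3 and 42.4 RPM and the ranks 6, 14 and 11. Of the 14 entries that stood among the 10 most abundant of at least 1 library, 6 did so in all 3. Of the 67 that stood among the 50 most abundant of at least 1 library, 34 did so in all 3.

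**Figure D2:**
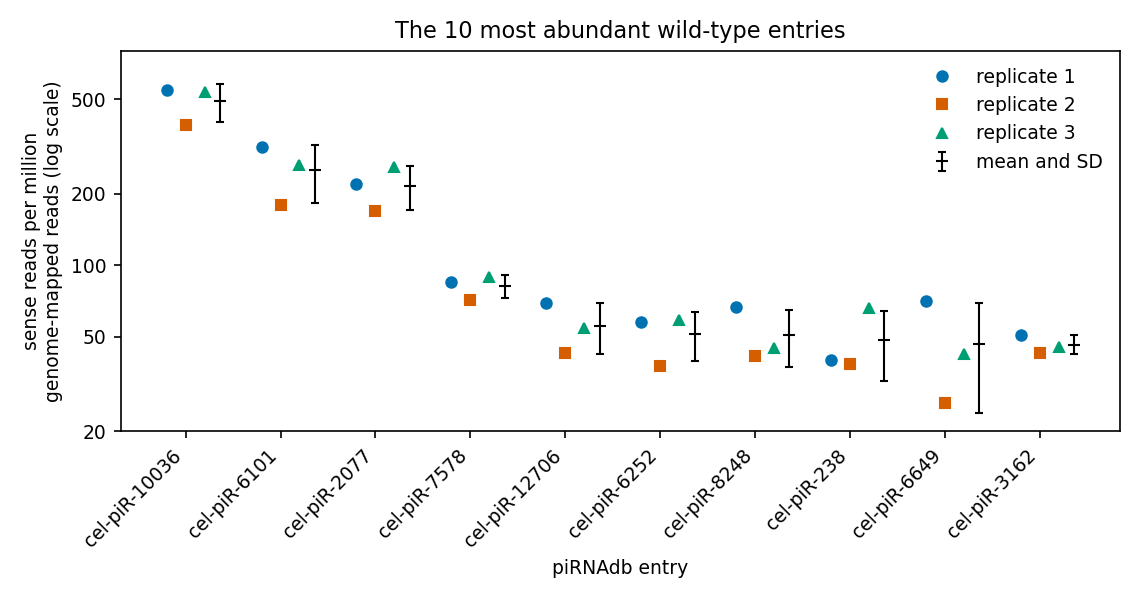
Sense rate (RPM, log scale) of the 10 most abundant wild-type entries in each of the 3 libraries, with the mean and SD (n = 3) to the right of the points. The first 3 entries, at 169 to 548 RPM, lie above all others, and replicate 2 gives the lowest point for each of the 10 entries.

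The reads were concentrated to a similar degree in the 3 libraries. The single most abundant entry held 10.7 ± 1.32% of sense reads, the first 3 held 20.8 ± 2.25% and the first 10 held 29.1 ± 3.06% (SD, n = 3). With the first 100 entries the share was 56.8 ± 2.82%, and with the first 1000 it was 88.4 ± 3.85% (SD, n = 3). By mean share over libraries, 7 entries held 25% of the reads, 63 held 50%, 363 held 75% and 1141 held 90%. Replicate 2 was the most concentrated library and replicate 1 the least, with 50 and 73 entries for 50% of the reads and 60 in replicate 3. These values were not brought to equal depth, and replicate 2 had 5129 sense reads beside 14377 in replicate 1 and 14141 in replicate 3. A repertoire in which all entries were equally abundant would need 45 entries in replicate 2, 66 in replicate 1 and 49 in replicate 3 to give the same probability that 2 reads fall on the same entry (the inverse Simpson index).

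The number of entries detected had not levelled off at the depth of these libraries. Replicates 1, 2 and 3 had 2325, 1190 and 2162 entries with a sense read. When each library was reduced to the 5129 sense reads of replicate 2, by the exact expectation of drawing reads without replacement, replicate 1 was expected to show 1353 entries and replicate 3 1282, beside the 1190 of replicate 2. The mean at this depth was 1275 ± 81.9 entries (SD, n = 3), so the range over libraries was 1190 to 1353 entries at equal depth and 1190 to 2325 without it. At equal genome-mapped reads the differences were larger, at 1872, 1190 and 1587 entries for replicates 1, 2 and 3, and replicate 2 also had the lowest piRNA rate.

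Over the pooled libraries, the first 1000 sense reads brought 461 entries and the last 1000 brought 41.1. A draw of 16823 of the 33647 pooled reads was expected to show 2543 entries, 74.0% of the 3437 found with all of them. By the Good-Turing estimate, entries already seen account for 95.9% of the piRNA molecules from which the pooled reads were drawn. The estimate was 92.5%, 87.7% and 93.0% for replicates 1, 2 and 3. The Chao1 estimate, a lower bound on the number of entries present that is computed from the entries seen 1 and 2 times, was 5047 for the pool. In replicates 1, 2 and 3 it was 3663, 1992 and 3362, so the bound itself rose with depth. For the 12476 entries without a sense read, a count of 0 over the 3 libraries allows a rate of up to 0.434 RPM, which covers counting error only. At this depth these entries were not detected, which does not show that they are absent.

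**Figure D3:**
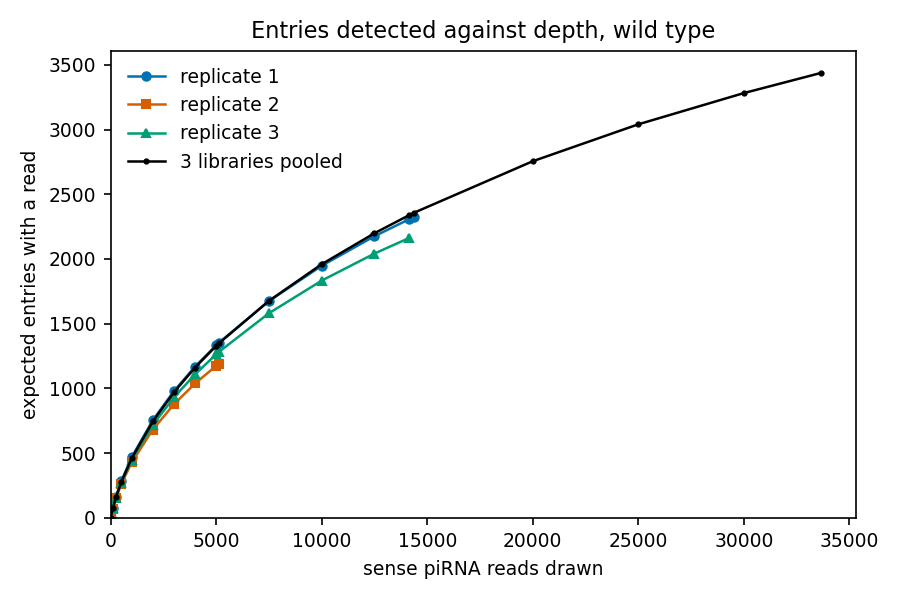
Expected number of entries with at least 1 read against the number of sense piRNA reads drawn, for each wild-type library and for the 3 pooled. All 4 curves still rise at their right end, at 2325, 1190, 2162 and 3437 entries.

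Entries shared by all libraries were few in number and carried most of the reads. A sense read was found in all 3 libraries for 690 entries (20.1% of those detected), which held 80.3% of pooled sense reads. Another 860 entries were found in 2 libraries, with 11.8% of the reads. The 1887 entries found in a single library held 7.93%. Replicates 1 and 3 shared 1283 entries, 55.2% of those in replicate 1 and 59.3% of those in replicate 3. Replicates 1 and 2 shared 832, which was 35.8% of the entries of replicate 1 and 69.9% of those of replicate 2.

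Presence in every library followed abundance, which is largely so by construction, since the classes count reads of the same 3 libraries. The numbers that counting alone would give were not computed. All 45 entries with at least 100 reads were found in all 3 libraries, as were 118 of the 120 with 30 to 99 reads and 248 of the 316 with 10 to 29. Among entries with 5 to 9 reads, 201 of 427 were in all 3. The entry with most reads in only 1 library was cel-piR-15557, named after its values were seen, with 0, 0 and 12 sense reads in replicates 1, 2 and 3.

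Antisense reads were a small part of the piRNA reads in all 3 libraries. Replicates 1, 2 and 3 had 1345, 634 and 1650 antisense reads, or 8.55%, 11.0% and 10.4% of the reads of both strands. The exact binomial 95% intervals (Clopper-Pearson) were 8.12 to 9.003%, 10.2 to 11.8% and 9.98 to 10.9%, so replicate 1 lay below the others by more than counting error. The mean share was 10.002 ± 1.28% (SD, n = 3). As a rate, antisense reads were at 555, 406 and 565 RPM, a mean of 509 ± 88.9 RPM (SD, n = 3) with a CV of 17.5%, beside 28.4% for sense reads.

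Most entries with a read had reads of only 1 strand. Of the 4029 entries with any read, 3219 had sense reads only, 592 antisense reads only and 218 both. Over all 15913 entries, 21.6% had a sense read and 5.09% an antisense read, so entries with both would be few even if the strands were independent. The number expected in that case was not computed, so 218 is not read as fewer than it. Single reads weigh heavily in these numbers, so the balance was examined for the 546 entries with at least 10 reads over both strands and all libraries, which held 77.3% of piRNA reads. All reads lay on the sense strand for 445 of them and all on the antisense strand for 40. Thus 485 of 546 (88.8%) had reads on 1 strand only. A further 31 entries had up to 10% antisense reads and 11 had 90% or more, which left 19 in between. An entry of 10 reads with none on a strand can still have up to 30% of its molecules there, so this split is firmest for the abundant entries. Of the 48 entries with at least 100 reads, 44 had reads on 1 strand only, and the other 4 had at most 1.28% on the minor strand.

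The difference between strands was tested in every library together, with edgeR's quasi-likelihood test, the library as a block and a Benjamini-Hochberg false discovery rate (FDR) under 0.05. Of the 546 entries, 472 (86.4%) had more sense than antisense reads and 50 (9.16%) had more antisense than sense reads. The remaining 24 were not called. Of the 472, 445 had no antisense read, and of the 50, 40 had no sense read. These were all the tested entries with reads on a single strand. The calls thus largely restate that split and are not separate evidence for it. Sense reads outnumbered antisense reads in each of the 3 libraries for 407 of the 472, and antisense reads did so in each library for 45 of the 50. The 472 sense entries held 26257 sense and 53 antisense reads, and the 50 antisense entries held 2135 antisense and 19 sense reads. The fit pooled its estimate of spread over all entries, so the FDR of an entry reflects that pooled estimate more than the spread of its own 3 libraries. Nor did the FDR rank entries by their counts. The edgeR FDR was 0.000406 for cel-piR-10036, with 3501 sense reads, and 1.14e-08 for cel-piR-4274, with 116. Neither entry had an antisense read.

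Without wild type replicates 1, 2 or 3 the calls fell to 275, 314 and 173 more sense and to 38, 30 and 14 more antisense, out of 323, 475 and 340 entries that still had 10 reads. DESeq2 called 172 and 16, and gave 201 of the 546 entries no FDR. None of these fits called an entry in the direction opposite to that of the fit with all libraries. Without replicate 2 the sense entries cel-piR-7578, cel-piR-2077, cel-piR-6101 and cel-piR-10036 were not called, although none of them had an antisense read in any library. Nor were the antisense entries cel-piR-1599, which had no sense read, and cel-piR-1259, which had 3.

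None of the 10 most abundant sense entries had an antisense read in any library. For cel-piR-10036, 3501 sense reads stood against 0, at least 1167-fold more sense with a floor of 3 counts over the 3 libraries (edgeR FDR 0.000406). For cel-piR-6101 it was 1812 reads against 0, at least 604-fold, and for cel-piR-2077 1553 against 0, at least 518-fold. Among the 50 most abundant sense entries, 47 had no antisense read, and the 50 together had 4 antisense and 15591 sense reads. Over all 15913 entries, 810 (5.09%) had an antisense read, so having none is not particular to the abundant entries.

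**Figure D4:**
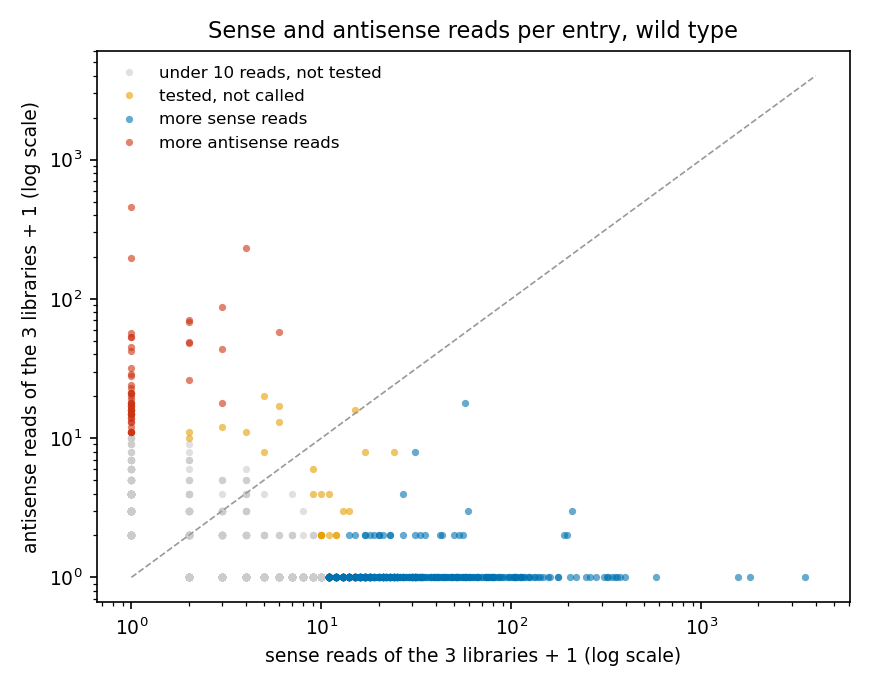
Antisense against sense reads of each entry, summed over the 3 wild-type libraries, with 1 added so that 0 can be shown (log scales); colours mark the edgeR call and the dashed line marks equal counts. The points lie along both axes: 472 entries with more sense reads, 50 with more antisense reads, and 24 tested entries that were not called.

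The entries with mainly antisense reads had their own leading members. The entry with most antisense reads, cel-piR-1599, had 172, 81 and 206 of them in replicates 1, 2 and 3 and no sense read. This was a rate of 70.9, 51.9 and 70.5 RPM, a mean of 64.4 ± 10.9 RPM (SD, n = 3), higher than the mean sense rate of cel-piR-12706, and at least 153-fold more antisense than sense (edgeR FDR 2.39e-07). The second, cel-piR-1259, had 65, 42 and 125 antisense reads and 0, 0 and 3 sense reads, a ratio of 77.3 with a counting interval of 26.1 to 378. For cel-piR-1090 the antisense reads were 86, 27 and 83, with no sense read. These 3 entries held 24.0%, 23.7% and 25.1% of antisense reads in replicates 1, 2 and 3. The next, cel-piR-14696, had 9, 48 and 29 antisense reads, or 3.71, 30.7 and 9.93 RPM, and was highest in the shallowest library. The fifth, cel-piR-6514, had 15, 17 and 37 antisense reads against 1, 0 and 0 sense reads.

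Antisense reads were also concentrated on few entries. An antisense read was found for 810 entries, of which 464 (57.3%) had 1 read and 85 were found in all 3 libraries. Those 85 held 64.3% of antisense reads. In the pool, 27 entries held 50% of antisense reads, beside 66 for sense reads. The 3629 antisense reads showed 810 entries, whereas the same number of sense reads was expected to show 1094. The 10 leading antisense entries held 36.5% of the pooled antisense reads, and the 10 leading sense entries 28.5% of the pooled sense reads. The sense pool had 33647 reads, and only the number of entries detected was compared at equal depth.

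Entries with reads on both strands in comparable numbers were rare. Of the 546 entries, 12 had between 20% and 80% antisense reads. The largest of them was cel-piR-8767, with 31, 14 and 11 sense reads and 6, 4 and 7 antisense reads in replicates 1, 2 and 3, an antisense share of 23.3%. It was called as having more sense reads, and all 3 libraries had that direction. The most even was cel-piR-7927, with 4, 0 and 10 sense and 4, 3 and 8 antisense reads (edgeR FDR 0.704). Both were named after their values were seen. The 24 entries that were not called had 10 to 30 reads each.

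The replicates differed by more than counting error, and most well-counted entries had their lowest rate in replicate 2. Each pair of libraries was compared by a chi-square test of sense counts over entries with at least 10 reads in the pair. The statistic per degree of freedom was 2.22 for replicates 1 and 2, 3.31 for replicates 1 and 3 and 1.77 for replicates 2 and 3, where counting error alone gives about 1, so no library was a copy of another. Among the 165 entries with at least 30 sense reads, which held 63.3% of the reads, the rate in RPM was lowest in replicate 2 for 121 and highest there for 7. The median entry was 0.88 higher in replicate 1 than in replicate 2 on the log2 scale of rates (with 0.5 reads added), and the median difference of replicate 2 from replicate 3 was -0.56. Shares of all sense reads are centred on each library's own total, which takes out a difference in that total by construction. On that scale 59, 60 and 46 of these entries were lowest in replicates 1, 2 and 3, and the median log2 differences were 0.03, -0.02 and 0.00.

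Spread between libraries was given by edgeR as a biological coefficient of variation, the variation that counting error leaves over. On the scale of RPM it was 50.7% over the 481 entries with at least 10 sense reads. With library sizes taken from the sense piRNA reads it was 36.6%. For single entries the spread of the share narrowed with abundance. The median CV of the share was 58.1% among the 316 entries with 10 to 29 reads, where counting alone gives 50.1%. Among the 120 with 30 to 99 reads it was 33.4%, beside 27.99% for counting. Among the 33 of the next class it was 22.1% and among the 12 with 300 or more 18.5%, beside 16.9% and 10.2%. The median CV was thus above the counting value in every class, and most so, relative to that value, for the most abundant entries. The counting value comes from an expected variance, and a median CV of 3 libraries tends to lie below such a value. The excess over counting error may therefore be understated, also for the scarcer entries. Across the 165 entries with at least 30 reads, the Pearson correlation of log2 shares between pairs of libraries was 0.77, 0.73 and 0.79, values that rest on entries counted from the same 3 libraries.

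**Figure D5:**
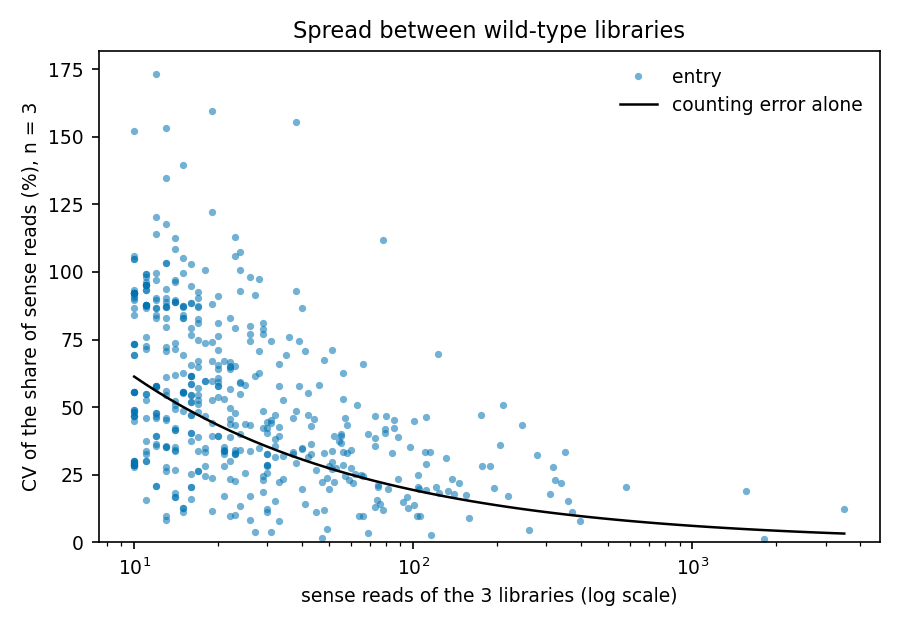
CV of the share of sense reads between the 3 wild-type libraries (%) against the sense reads of the 3 libraries (log scale), 1 point for each of the 481 entries with at least 10 reads; the line is the CV that counting error alone gives. The points spread widely around the line at few reads, where the median is 58.1%, and mostly lie above it among the 12 entries with 300 reads or more, where the median is 18.5%.

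A few well-counted entries changed several-fold between wild-type libraries. The largest spread was that of cel-piR-2052, with 0, 1 and 37 sense reads in replicates 1, 2 and 3. It had at most 1 read in replicates 1 and 2 and stood at rank 52 in replicate 3. For cel-piR-6145 the reads were 21, 0 and 19, so it was missing from replicate 2 alone. For cel-piR-8559 they were 68, 7 and 3, or 28.05, 4.48 and 1.03 RPM. The other 2 of the 5 largest spreads were cel-piR-6759, with 33, 10 and 5 reads, and cel-piR-15484, with 27, 1 and 10. Among the 120 entries with 30 to 99 reads, the share differed over 2-fold between the highest and lowest library for 54 and over 4-fold for 10. Among the 12 with 300 or more, 1 differed over 2-fold and 0 over 4-fold. How many such differences counting error alone gives was not computed. Its median CV was 27.99% among the entries with 30 to 99 reads.

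Other entries kept nearly the same share in every library. The share of cel-piR-6101 was 5.31%, 5.44% and 5.44%, a CV of 1.34%, while its rate had a CV of 27.3%. For cel-piR-4274 the reads were 50, 17 and 49 and the shares 0.348%, 0.331% and 0.347%. The shares of cel-piR-5654, cel-piR-7605 and cel-piR-9316 had CVs from 1.78% to 4.54%. Replicate 2 had 7, 10 and 41 reads of these 3 entries. The median CV from counting error alone was 16.9% or more in their abundance classes, so these low values were picked from a wider range and do not measure precision.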

How the data were processed

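The deposited values per piRNA entry were raw counts of sense and antisense reads per library, and those per genome segment were raw read counts, per the file headers. The first row, a total, was dropped; its values equalled the column sums. Entries were those of piRNAdb release 1.7.6, per the name of that first row. The submitters' processing notes list cutadapt 3.7 and FastQC 0.12.0. Aligner, genome build and the handling of multiply matching reads: not given in the sources used here. Entries with near-identical sequences may therefore share reads. Segment lengths, deposited in bases, were assigned in order to chromosomes I to X and mitochondrial DNA, since each short last segment closes a chromosome and every gene of Ensembl release 115 (WBcel235) ends within the lengths obtained. The 12 mutant columns of the entry table and 6 of the segment table were not used.

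Rates were reads per 1000000 genome-mapped reads; 3 counts, the floor used for a count of 0, were worth between 1.03 and 1.92 RPM. Floors and binomial intervals describe counting error alone. Strands were compared with edgeR 4.0.16 (glmQLFit and glmQLFTest, library as a block, genome-mapped library sizes, at least 10 reads), with DESeq2 1.42.0 as an alternative; both strands of a library come from the same sample, so the pairing is part of the design. The fit was tested on simulated data with known answers, in which no entry was set to be confined to a single strand. The entries, classes and tests were chosen with earlier results of these data known. Entries were named by rule: the 10 highest mean rates, the 5 largest and 5 smallest spreads of log2 share among entries with at least 30 reads, the 5 with most antisense reads, the 5 with most reads among those called antisense, and the 5 with most sense reads and no antisense read.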

Additional observations from a re-analysis of the deposited data

How the results depend on the processing

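The mean sense rate, the entries that hold 50% of the reads and the share of the 10 most abundant entries moved by less than the spread between libraries, or by less than 1.5 times for numbers of entries, under every alternative run. Counting an entry as detected from 2 sense reads gave 2071 entries in place of 3437. The mean antisense share was 6.48% in place of 10.002% without the 10 entries that have most antisense reads. With at least 20 reads in total, 277 entries were tested and 247 and 24 were called as more sense and more antisense, and with at least 1 read 339 and 39 were. DESeq2 called 172 and 16. Leaving out each library in turn gave 173 to 314 and 14 to 38; these fits had fewer libraries and fewer entries with 10 reads. In the fit without the paired library (no replicate block) 478 and 53 were called, and all 472 and 50 were among them. With TMM factors, which set the strands to a common scale, 366 and 53 were called. The biological coefficient of variation of 0.507 was 0.366 with library sizes from sense reads, 0.366 with TMM and 0.365 with DESeq2 median-ratio factors, scalings that take up differences in the libraries' sense totals, and ranged from 0.412 to 0.589 when a library was left out. Of 135 refitted strand differences of named entries, 6 lost their call, all without wild type replicate 2, and 0 changed direction. Of 40 recomputed rates, 2 moved by more than their SD, both without the last segment of chromosome I in the denominator: cel-piR-7578 to 91.2 RPM and cel-piR-3162 to 51.8 RPM. A segment of chromosome V with 15 annotated ribosomal RNA genes, at 5.07% of genome-mapped reads on average, stayed in that denominator. Depth limits what can be said of single entries under 10 reads.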

Other observations

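Some entries had identical counts in all 6 wild-type columns. Among the 546 entries with at least 10 reads over both strands, 95 (17.4%) were in 38 sets of identical counts. Among the 277 with at least 20 reads, 4 were, namely cel-piR-5540 with cel-piR-9797 (12, 3 and 6 sense reads in replicates 1, 2 and 3) and cel-piR-4117 with cel-piR-5432 (5, 4 and 11). Among the 182 with at least 30 reads, 0 were. Small counts can coincide without shared reads, and the number of sets this would give was not computed. Whether such entries share reads was not tested, since the tables hold no sequences.

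The Ensembl annotation lists 15363 piRNA genes, and 14714 of them (95.8%) lie on chromosome IV, a number close to the 15913 entries of the database. Chromosome IV took 14.9%, 11.7% and 15.4% of all genome-mapped reads in replicates 1, 2 and 3, with 17.4% of the genome's length. Sense piRNA reads were at most 0.593% of genome-mapped reads, so the reads of that chromosome were mainly of other kinds. Chromosome I took 30.5%, 35.8% and 26.4% with 15.0% of the length, and this includes its last segment.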
